A study of Mus musculus with 2 samples.

Results

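The matrilins are a family of 4 extracellular adaptor proteins, encoded by *Matn1*, *Matn2*, *Matn3* and *Matn4*. The members are the 4 genes with these symbols, of 23628 genes in the deposited values. They were selected on measured values, because *Matn1* differed widely between the 2 libraries, and the other family members were added for comparison. Differences between the libraries are therefore given as a description, with no test. The study sequenced RNA of *Sox9*GFPHi chondrospheres, which are cartilage-like colonies grown from sorted single cells, and both sequenced samples, replicate 1 and replicate 2 of the labels (library 1 and library 2 below), are of this 1 condition. The cells came from femoral heads of pups at postnatal day 7 that carried a homozygous *Sox9* IRES-EGFP reporter, a strain in which green fluorescence follows the cartilage transcription factor gene *Sox9*. Cells with the highest fluorescence that lacked the lineage markers CD31, Ter119 and CD45 were cultured in methylcellulose at low oxygen, in serum-containing medium with FGF2, BMP4, IGF1, LIF and TGF-β1. The labels name no treatment, batch or sex that differs between the libraries. Per the authors, pups were harvested separately and each counted as a biological replicate. How many pups or colonies each library holds is not given in the sources used here, so the spread between the libraries may be biological or technical.

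Matrilins carry von Willebrand factor A domains, which bind other matrix proteins, and EGF-like repeats, and they assemble into oligomers through a coiled coil at the end of the chain. Matrilin-1, also called cartilage matrix protein, and matrilin-3 are known from cartilage, where they can assemble into mixed oligomers and connect collagen fibrils with aggrecan and COMP. Matrilin-2 and matrilin-4 are more widespread and also occur in loose connective tissue. *Matn1* is known as a gene of epiphyseal and growth plate cartilage with low expression at the articular surface, and altered matrilin-3 is known from human multiple epiphyseal dysplasia.

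*Matn1* and *Matn3* were the members with large differences between the libraries, so the 250 bases before their start sites are shown, from the RefSeq promoter windows on GRCm38.p6 (3 of the 4 matrilins matched, *Matn1*, *Matn3* and *Matn4*, but not *Matn2*). Both are on the plus strand, chr4:130944135-130944384 for *Matn1* and chr12:8947679-8947928 for *Matn3*, and are written 5′ to 3′. Capitals mark matches on either strand to GGGCGG (GC box) or TTGGC (the half-site of nuclear factor I, NFI).
Matn1: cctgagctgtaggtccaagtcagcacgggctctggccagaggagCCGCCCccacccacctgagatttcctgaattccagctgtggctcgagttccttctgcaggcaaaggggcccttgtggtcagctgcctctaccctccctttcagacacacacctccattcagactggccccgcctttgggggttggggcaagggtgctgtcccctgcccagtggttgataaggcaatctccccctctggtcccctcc
Matn3: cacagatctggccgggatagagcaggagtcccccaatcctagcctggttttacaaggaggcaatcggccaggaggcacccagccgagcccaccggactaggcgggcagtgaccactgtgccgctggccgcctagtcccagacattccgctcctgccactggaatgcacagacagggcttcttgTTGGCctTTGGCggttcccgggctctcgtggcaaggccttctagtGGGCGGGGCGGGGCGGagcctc

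The *Matn1* window held 1 GC box, on the minus strand at 206 bases before the start, and no NFI half-site. The *Matn3* window held 3 GC boxes, at 22, 17 and 12 bases before the start, each overlapping the next by 1 base, and 2 NFI half-sites at 67 and 60 bases before it. Neither window held the SOX core ACAAT or the TATA box TATAAA on either strand. Of 32851 windows of the same length, 32.7% held GGGCGG, 41.5% TTGGC, 27.7% ACAAT and 12.4% TATAAA. These matches describe letters in a short window, and no binding was measured. The windows were 62.0% (*Matn1*) and 65.2% (*Matn3*) G and C. The 2 upstream windows of *Matn4* held neither ACAAT nor TATAAA. Of these windows, 1 held a GC box at 6 bases before its start. The other held an NFI half-site at 90 bases before its start.

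Levels are counts-per-million (CPM) values, that is, the reads of a gene scaled to the same total in each library. With the commonest low value taken as 1 read, the reads on genes were about 43300000 in library 1 and 42100000 in library 2. A level of 3 reads, 0.0693 CPM in library 1 and 0.0712 CPM in library 2, was taken as the floor. Intervals and floors cover counting error only. The 10 highest genes took 43.4% of all CPM in library 1 and 34.7% in library 2, and the median log2 ratio of library 2 to library 1 over the 12631 genes that averaged 1 CPM or more was 0.30. The chondrocyte genes *Col2a1*, *Acan* and *Sox9* had at least 100682, 12002 and 252 CPM in each library. Of the endothelial markers, 3 of 4 were listed at 0 in both libraries, and the 4 summed to at most 0.231 CPM. Both adipocyte markers listed, *Adipoq* and *Plin1*, were at 0, and the 3 erythroid markers and the 4 muscle markers summed to at most 0.0930 and 0.911 CPM. The leukocyte markers summed to 2.63 and 2.55 CPM, nearly all from *Cd68*, with *Tyrobp* at 0. The fibroblast markers summed to 2.40 and 3.09 CPM, with *Pi16* at 0. Of the Schwann cell markers *Sox10* reached at most 0.0693 CPM, while *S100b*, which chondrocytes also express, had 486 and 271 CPM. The osteoblast markers differed, with a sum of 4.86 CPM in library 1 and 52.7 CPM in library 2, of which *Dmp1* made up 0.116 and 40.4 CPM.

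*Matn1* lies on chromosome 4 from 130944385 to 130955475 of GRCm38, with 1 annotated transcript. It had 902 CPM in library 1 and 29.2 CPM in library 2, a mean of 466 ± 617 CPM (SD, n = 2). The 95% exact Poisson intervals were 893 to 911 CPM, from about 39000 reads, and 27.6 to 30.9 CPM, from about 1230 reads. The level was thus 30.9-fold higher in library 1, and counting error was small against this difference. By level, *Matn1* ranked 76 among all genes in library 1 and 4556 in library 2. In such bulk libraries, fewer cells that express a gene and less RNA of it per cell cannot be told apart.

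*Matn3*, on chromosome 12 from 8947929 to 8972028 and also with 1 annotated transcript, differed in the same direction. It had 741 CPM in library 1 and 53.1 CPM in library 2, a mean of 397 ± 487 CPM (SD, n = 2). The Poisson intervals were 733 to 749 CPM and 51.0 to 55.4 CPM. The level was 13.9-fold higher in library 1, and the gene ranked 91 there against 2622 in library 2. Both genes whose products are the typical matrilins of cartilage were therefore abundant in one library and at moderate levels in the other.

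*Matn2*, on chromosome 15 from 34306677 to 34436273 with 6 annotated transcripts, had 112 CPM in library 1 and 143 CPM in library 2, a mean of 128 ± 21.7 CPM (SD, n = 2). Its rank hardly moved, from 821 to 807. *Matn4*, on the minus strand of chromosome 2 from 164389393 to 164405160 with 5 annotated transcripts, had 14.2 CPM in library 1 and 9.84 CPM in library 2, a mean of 12 ± 3.05 CPM (SD, n = 2). Its intervals, 13.1 to 15.3 CPM and 8.92 to 10.8 CPM, did not overlap, but they do not cover the spread between cultures. Neither gene differed by 2-fold.

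**Figure D1:**
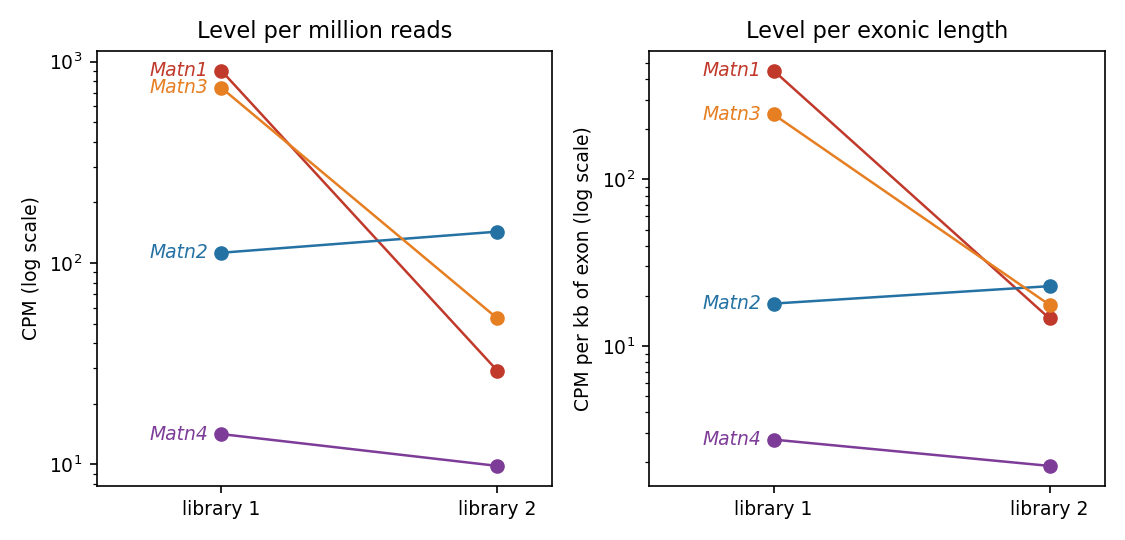
Levels of the 4 matrilins in library 1 and library 2, as CPM (left) and as CPM per kb of annotated exon (right), both on log axes, with 1 point per library and a line joining the points of a gene. *Matn1* went from 902 to 29.2 CPM and *Matn3* from 741 to 53.1 CPM, while *Matn2* stayed between 112 and 143 CPM and *Matn4* was the lowest in both libraries.

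The family's makeup differed accordingly. The 4 genes summed to 1770 CPM in library 1 and 235 CPM in library 2, a 7.52-fold difference. *Matn1* made up 51.0% of that sum in library 1 and 12.4% in library 2, and *Matn3* 41.9% and 22.6%. *Matn2* made up 6.35% in library 1 and 60.8% in library 2. Levels of different genes were compared per kb of annotated exon. In library 1 the order was *Matn1* at 451 CPM per kb, *Matn3* at 246, *Matn2* at 18 and *Matn4* at 2.74. In library 2 it was *Matn2* at 22.8 CPM per kb, *Matn3* at 17.6, *Matn1* at 14.6 and *Matn4* at 1.90. *Matn4* was the lowest in both. Its log2 ratio to *Matn2* per length was -2.71 in library 1 and -3.59 in library 2, a mean of -3.15 that exceeded its SD of 0.62. The order of the other 3 turned around between the libraries. The log2 ratio per length of *Matn1* to *Matn3* was 0.87 in library 1 and -0.27 in library 2, a mean of 0.30 within its SD of 0.81. That of *Matn1* to *Matn2* was 4.65 and -0.65, a mean of 2.0 within its SD of 3.74, and that of *Matn2* to *Matn3* was -3.78 and 0.37, a mean of -1.70 within its SD of 2.93. *Matn1* was chosen for its difference between the libraries, which made the SDs of its ratios wide in advance. The spread of *Matn2* to *Matn3* comes mostly from *Matn3*. No order of these 3 genes is read from the means.

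Ratios within a library do not depend on how it was scaled, and the main cartilage collagen gene *Col2a1* served as a second reference. *Col2a1* itself had 148953 CPM in library 1 and 100682 CPM in library 2. Its log2 ratio of library 2 to library 1 was -0.57, or -0.87 against the median of all genes. Per length, the log2 ratio of *Matn1* to *Col2a1* was -5.16 in library 1 and -9.54 in library 2. That of *Matn3* to *Col2a1* was -6.03 and -9.27. The log2 ratio of *Matn2* to *Col2a1* was -9.81 and -8.90, so this ratio was higher in library 2, where *Col2a1* was lower. *Matn4* held nearly the same ratio to *Col2a1* in both, -12.52 and -12.48, as both genes were lower in library 2. Against the median of all genes, the log2 ratio of library 2 to library 1 was 0.04 for *Matn2* and -0.82 for *Matn4*.

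Between the libraries, log2 ratios of library 2 to library 1 were taken on the scale of log2(CPM + 0.1). They were -4.94 for *Matn1*, -3.80 for *Matn3*, -0.52 for *Matn4* and 0.35 for *Matn2*, with counting errors of 0.04, 0.03, 0.09 and 0.03. Set against the median of all genes of 0.30, *Matn2* lay 0.04 above it and *Matn4* 0.82 below it. Of the 4 matrilins, 2 were more than 2-fold lower in library 2 and none was more than 2-fold higher. Among the 12631 genes that averaged 1 CPM or more, 3.71% were more than 2-fold lower and 11.4% more than 2-fold higher. That split depended on the scaling, with 468 genes lower and 1435 higher as deposited, and 732 lower and 973 higher when the libraries were scaled by a trimmed mean of log ratios. Because *Matn1* was chosen for this difference, nothing is read from the members' count or from the ranks given next. The ratio of *Matn1* was the lowest of the 7903 genes averaging 10 CPM or more, and that of *Matn3* ranked eighth from the bottom. Among the 12631 genes, only *Syt3* had a lower ratio, and it had 3.90 CPM in library 1 and 0.0237 CPM, about 1 read, in library 2 (this gene was named after its values were seen).

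The 8 genes whose ratio lay nearest to that of *Matn1*, among those averaging 10 CPM or more, were *Sfrp2*, *Col14a1*, *Cpxm2*, *Chrdl2*, *Fosb*, *C4b*, *Matn3* and *Gas1*. Likeness here is the distance between log2 ratios over only 2 libraries, 0.25 for the nearest and 1.21 for the last. *Sfrp2*, a secreted WNT modulator, had 37.0 CPM in library 1 and 1.33 CPM in library 2. *Col14a1*, a fibril-associated collagen gene that also encodes von Willebrand A domains, had 62.2 and 2.37 CPM. *Chrdl2*, a chordin-like BMP antagonist gene, had 102 and 6.22 CPM. All 8 were higher in library 1, a direction fixed by how they were chosen, and *Sfrp2*, *Col14a1* and 4 others were below 10 CPM in library 2, so they passed the limit of 10 CPM on the mean through library 1. *Gas1*, which encodes a hedgehog co-receptor, had 143 and 10.6 CPM, and *Fosb*, a gene of the AP-1 transcription factor, 68.6 and 4.27 CPM. Apart from *Matn3*, their means lay between 16 and 76.6 CPM, below those of *Matn1* and *Matn3*.

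**Figure D2:**
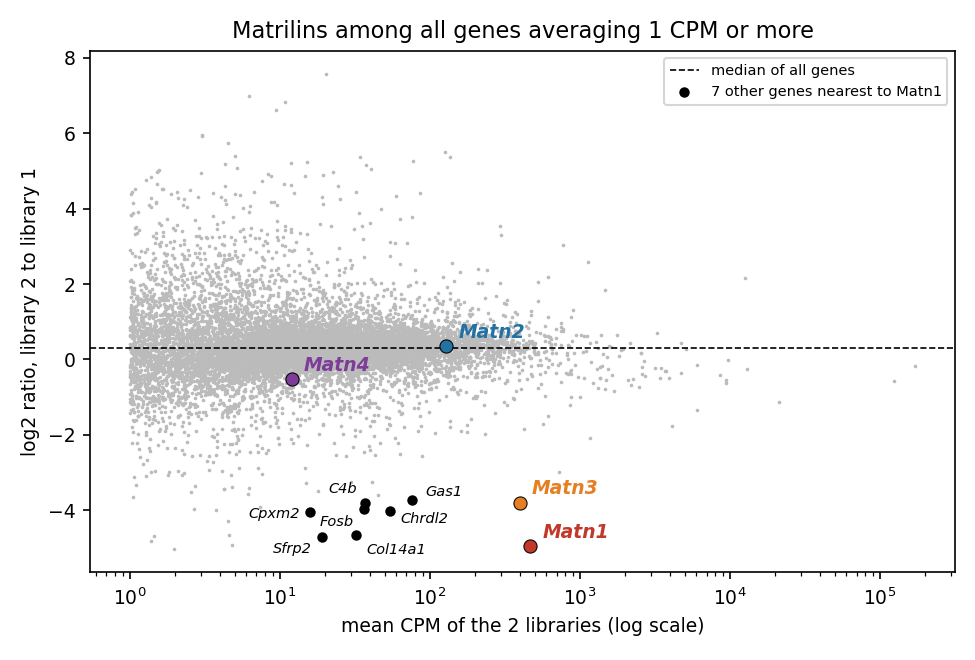
The log2 ratio of library 2 to library 1 against the mean CPM (log axis) for all genes averaging 1 CPM or more, with the matrilins in colour, the 7 other genes nearest to *Matn1* in black and the median of 0.30 as a dashed line. *Matn1*, which was chosen for its difference between the libraries, lies at -4.94 and *Matn3* at -3.80. *Matn2* lies on the median and *Matn4* is 0.82 below it.

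SOX and NFI factors are known to act on *Matn1*. None of 7 of their genes differed by 2-fold, and with 3.71% of all genes lower and 11.4% higher, this count is near the background and nothing is read from it. Their ratios ran from -0.66 (*Nfia*) to 0.45 (*Sox5*), with a median of -0.07. *Sox9*, the master regulator of chondrocytes, had 252 CPM in library 1 and 279 CPM in library 2. *Sox5* had 38.3 and 52.4 CPM and *Sox6*, its partner in the activation of cartilage genes, 52.3 and 50.0 CPM. Activity of these factors was not measured, and their part in the matrilin difference was not tested.

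The matrix partners differed in both directions. Of 12 genes for proteins that cartilage matrilins are known to bind or to join to other fibrils, 1 was more than 2-fold lower in library 2, 3 were more than 2-fold higher and 8 were within 2-fold, with a median ratio of -0.32, beside 3.71% lower, 11.4% higher and a median of 0.30 over all genes. After the trimmed-mean scaling the counts were 2 lower and 2 higher, beside 5.80% and 7.70% of all genes, and with so few members nothing is read from them. *Comp*, a matrix protein gene of cartilage, had 11098 CPM in library 1 and 7669 CPM in library 2, and *Acan*, the aggrecan gene, 14170 and 12002 CPM. The collagen IX genes, whose products decorate collagen II fibrils, had ratios of -0.79 (*Col9a1*), -0.51 (*Col9a2*) and -0.19 (*Col9a3*). *Dcn*, which encodes decorin, was the one lower gene, with 879 and 267 CPM, while *Bgn*, which encodes the related biglycan, had 9750 and 9739 CPM. The 3 higher genes were those of collagen VI, the microfibrils around the chondrocyte. *Col6a3* had 646 CPM in library 1 and 2299 CPM in library 2, and *Col6a1* had 271 and 787 CPM.

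Of 6 genes for partners of matrilin-2, none was more than 2-fold lower and 3 were more than 2-fold higher in library 2. Their median ratio was 0.90. Over all genes, 3.71% were lower and 11.4% higher, or 5.80% and 7.70% after the trimmed-mean scaling. With so few members, nothing is read from these counts. *Lamb1*, which encodes a laminin chain of basement membranes, had 10.2 CPM in library 1 and 141 CPM in library 2. *Nid1*, the nidogen gene, had 5.13 and 57.5 CPM, and *Fbn2*, a fibrillin gene, 1.87 and 5.20 CPM. *Col1a1* lay just inside the limit at -0.999, and passed it after the trimmed-mean scaling. The remaining partners, *Fn1*, the fibronectin gene, and *Lamc1*, another laminin chain gene, had ratios of -0.18 and 0.38. The ratio of *Matn2*, 0.35, was close to that of *Lamc1* and below those of the 3 higher genes.

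Other matrix genes with von Willebrand A domains split both ways. Of the 9 listed, 7 had a mean of at least 1 CPM, of which 3 were lower, 3 higher and 1 within 2-fold, against 3.71% lower and 11.4% higher over all genes. *Col20a1* and *Col28a1* passed this filter through 1 library only, which partly fixed the split, and nothing is read from it. Beside *Col14a1*, the lower ones were *Vit*, the vitrin gene, with 26.1 CPM in library 1 and 3.49 CPM in library 2, and *Col20a1* with 2.54 and 0.612 CPM, while *Col28a1* had 0.116 and 2.06 CPM. *Col12a1*, which encodes a collagen close to collagen XIV in structure, went the other way with 76.7 and 219 CPM, as did *Vwa1* with 5.29 and 15.4 CPM. *Coch* and *Col22a1* were at most at 0.116 CPM.

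Genes of epiphyseal and of articular cartilage were compared because *Matn1* is known to separate these regions. Of 11 epiphyseal chondrocyte genes averaging 1 CPM or more, 4 were more than 2-fold lower in library 2 and none was higher. Their median ratio was -0.55. Over all genes, 3.71% were lower and 11.4% higher. After the trimmed-mean scaling, 5 of the 11 were lower, against 5.80% of all genes. *Ucma* had 373 CPM in library 1 and 94.4 CPM in library 2, and *Chad*, which encodes chondroadherin, 6362 and 1891 CPM. *Scrg1* had 282 and 93.8 CPM, while *Fgfr3*, a receptor gene of growth plate chondrocytes, had 324 and 339 CPM. *Col10a1*, the hypertrophic collagen gene, had 1752 and 2109 CPM. Of 6 articular surface genes, 4 were lower and none was higher, with a median of -1.40, against the same 3.71% and 11.4%. With a pseudocount of 1 CPM, 3 were lower. *Cilp*, 1 of the 4, had 2.19 and 0.664 CPM and passed the filter through library 1. *Cilp2* had 213 and 61.7 CPM and *Erg*, a transcription factor gene of articular chondrocytes, 54.3 and 14.5 CPM, whereas *Prg4*, the lubricin gene, had 4094 and 3295 CPM. Genes of both regions were thus among the lower ones. The lists were chosen with earlier results of these data known, so nothing is read from their counts. No gene of either list differed as much as *Matn3* or as *Matn1*, which was chosen for its difference. Of the 4 osteoblast markers averaging 1 CPM or more, 3 were over 2-fold higher in library 2, against 11.4% of all genes (2 with a pseudocount of 1 CPM). *Dmp1* had 0.116 and 40.4 CPM and *Alpl* 0.462 and 1.92 CPM, so both passed the filter through library 2. This partly fixed the count, and nothing is read from it. The third, *Sp7*, had 1.96 and 6.81 CPM. Of the other osteoblast markers, *Ibsp* was within 2-fold with 2.24 and 3.27 CPM, and *Bglap* reached at most 0.229 CPM. Whether osteoblasts were present, and their part in the matrilin difference, was not tested. Of 5 aggrecanase genes, proteases of the ADAMTS family that cut cartilage matrix, 2 had a mean of at least 1 CPM and both were within 2-fold. With 3.71% of all genes lower and 11.4% higher, nothing is read from this. *Adamts4* and *Adamts5* averaged less than 1 CPM but were higher in library 2. *Adamts4* had 0.0693 CPM in library 1, which is the floor of 3 reads, and 0.522 CPM in library 2. *Adamts5* had 0.323 and 1.42 CPM, and nothing is read from values this low.

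**Figure D3:**
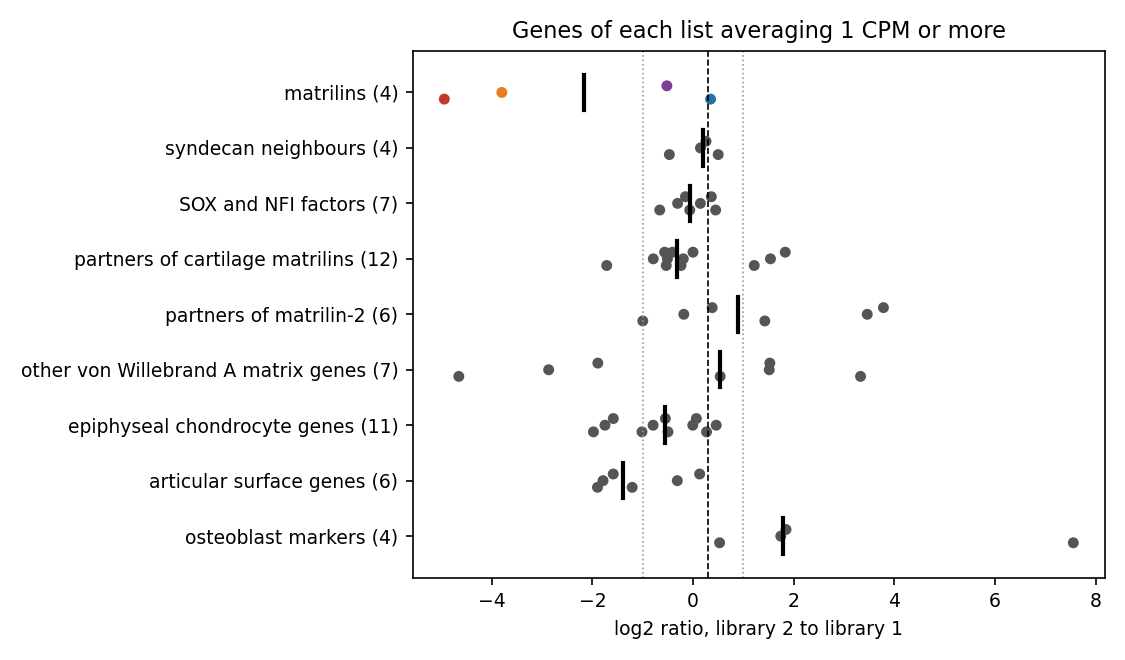
The log2 ratio of library 2 to library 1 for each gene of the lists averaging 1 CPM or more (points, number of genes in parentheses), with the list's median as a black bar, the median of all genes as a dashed line and 2-fold differences as dotted lines. The matrilins span -4.94 to 0.35 and the SOX and NFI factors lie within the dotted lines. The osteoblast markers shown lie at or above 0.53, but *Dmp1* and *Alpl* passed the filter through library 2 only.

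The genomic neighbours were examined because each matrilin gene lies on the same chromosome as a gene of the syndecan family of cell-surface proteoglycans. *Sdc3* lies 118 kb upstream of *Matn1*, *Sdc1* 154 kb upstream of *Matn3*, *Sdc4* 19.1 kb upstream of *Matn4* and *Sdc2* 1272 kb upstream of *Matn2*. In 3 of the 4 loci a gene of the LAPTM family, lysosomal membrane proteins, is the next coding gene upstream. The 4 syndecan genes were within 2-fold, beside 3.71% of all genes lower and 11.4% higher, so nothing is read from this count. *Sdc3* had 1727 CPM in library 1 and 2065 CPM in library 2, and *Sdc1* had 139 and 154 CPM. The ratios of *Sdc2* and *Sdc4*, 0.50 and -0.47, were small as well. *Laptm4a*, 9.19 kb before *Matn3*, had 506 and 446 CPM, and *Wdr35*, 1.86 kb after it, 34.9 and 24.1 CPM. At the *Matn1* locus, *Laptm5* ends 8.24 kb before *Matn1* on the same strand, and it had 5.73 CPM in library 1 and 0.807 CPM in library 2, a log2 ratio of -2.68. *Laptm5* is known from blood cells. Of the 4 leukocyte markers, *Cd68* had 2.56 and 2.40 CPM, *Tyrobp* was listed at 0, and *Ptprc* and *Csf1r* reached at most 0.0474 and 0.103 CPM. The part of such cells in the level of *Laptm5* was not tested. Downstream, *Ptpru* had 51.4 and 32.3 CPM.

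**Figure D4:**
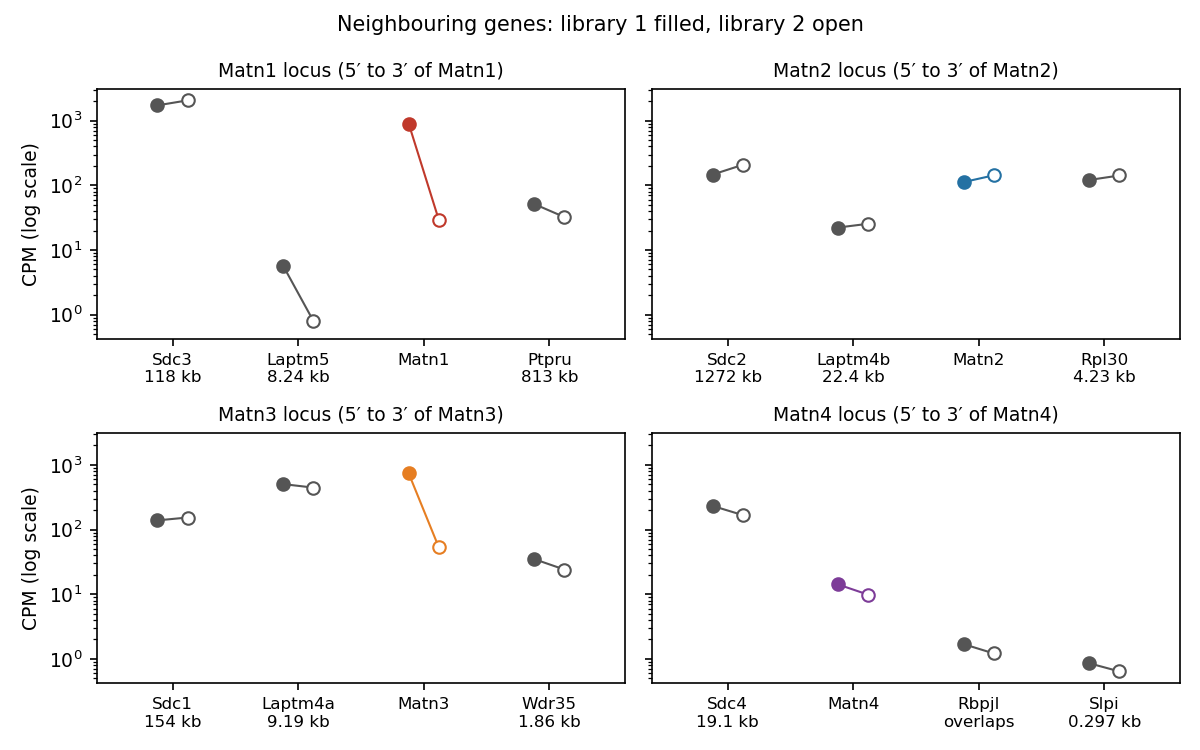
CPM (log axis) of each matrilin, its nearest coding neighbours and the syndecan gene of its chromosome, ordered along the matrilin's direction of transcription, with library 1 filled, library 2 open and the gap to the matrilin gene in kb. At the *Matn1* locus *Laptm5* was also lower in library 2 (5.73 and 0.807 CPM), while *Sdc3* was not, and the 3 genes beside *Matn3* were within 2-fold. Over all genes averaging 1 CPM or more, 3.71% were more than 2-fold lower and 11.4% more than 2-fold higher.

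Shared sequence could move reads between genes, so the 50-base windows of all annotated transcripts were compared. None of the 1952 windows of *Matn1* or the 2965 of *Matn3* occurred in a transcript of another gene on either strand, including the other matrilins. For *Matn2*, 0.825% of 6306 windows occurred in other genes on the same strand and 1.06% on the opposite strand. For *Matn4*, 1.44% of 5217 windows matched *Rbpjl*, which overlaps it on the opposite strand and had 1.69 CPM in library 1 and 1.21 CPM in library 2. The libraries were stranded, but whether strand was used in counting is not given in the sources used here, so a small share of the *Matn2* and *Matn4* reads is uncertain.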

How the data were processed

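Per the authors, reads were aligned to GRCm38 (mm10) with STAR 2.7.3a in Partek 10.0.21.0801, assigned to GENCODE M25 genes by the Partek E/M method and deposited as CPM. An offset of 0.0001 CPM on every value was subtracted. Of values under 1 CPM, 66.5% in library 1 and 65.3% in library 2 were whole multiples of 1 read (within 0.05 reads), so no count model was fitted. With 2 libraries of 1 condition, no test was made. Published fibroblast and pellet libraries were not analysed here.

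Log2 ratios used a pseudocount of 0.1 CPM, which understates the change of low genes. Lengths and positions came from GENCODE M21 on GRCm38, which matched 22967 of 23628 gene names. The members and the gene lists (9 lists and 8 marker lists, 102 entries) were chosen with earlier results of these data known. Named genes were the matrilins, the list members, the 8 genes nearest to *Matn1* in ratio and the adjacent coding genes. *Vwa2*, *Col21a1* and *Lep* of the lists are not among the gene names. Alternatives covered pseudocount, scaling, length, filter and leaving out a library. The filter of 100 CPM was chosen after seeing the data. The ratio and scaling steps were tested on simulated data. The tools were scipy 1.17.1, matplotlib 3.10.9, pandas 2.3.3 and numpy 2.4.6 under Python 3.11.15.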

Additional observations from a re-analysis of the deposited data

How the results depend on the processing

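For 16 results, 70 values were recomputed with 1 choice changed, and 65 of them stayed within a set limit. For log2 ratios between libraries the limit was 0.59. This is the SD of those ratios over genes averaging 1 CPM or more, divided by the square root of 2. For other values it was 1 SD, and a count had to stay within 1.5 times. Means and ratios without 1 of 2 libraries stay within 1 SD by arithmetic, so these show no stability: the mean of *Matn1* was 29.2 to 902 CPM and that of *Matn3* 53.1 to 741 CPM. A scaling shifts the ratios of all genes alike, here by less than 0.59, and a pseudocount hardly moves genes at these levels. The tally of 65 is therefore no measure of stability. Over the other pseudocounts and scalings, the log2 ratio of *Matn1* ran from -5.27 to -4.90, that of *Matn3* from -4.12 to -3.78, that of *Matn4* from -0.84 to -0.48 and that of *Matn2* from 0.02 to 0.35, and 2 matrilins passed 2-fold under each. When the total omitted the 10 highest genes, levels rose, since the total was smaller, and the means were 819 CPM for *Matn1*, 695 CPM for *Matn3*, 209 CPM for *Matn2* and 20.0 CPM for *Matn4*. The number of genes with a ratio at or below that of *Matn1*, itself included, was 2, and was 1 with a mean of at least 10 or 100 CPM or with a pseudocount of 1 CPM, but *Matn1* passed the 100 CPM filter only through library 1, so that value supports nothing. Without division by length, the mean log2 ratio of *Matn1* to *Matn3* was -0.29, against 0.30 per length, both within its SD. No paired analysis was possible because there is 1 group. With 2 libraries, the depth does not limit these values, but their number does.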
